A study of Glycine max with 4 samples.

Results

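The 3 soybean homologs of GIGANTEA and 4 CONSTANS-like genes of the photoperiod pathway were followed through RNA-seq libraries of shoot tips (tips below) and vegetative buds. They were chosen by identifier. The GIGANTEA homologs were Glyma10g36600 on chromosome 10, known as the maturity gene E2, Glyma20g30980 on chromosome 20 and Glyma09g07240 on chromosome 9. The CONSTANS-like genes were COL1a (Glyma08g28370, chromosome 8), COL1b (Glyma18g51320, chromosome 18), COL2a (Glyma13g07030, chromosome 13) and COL2b (Glyma19g05170, chromosome 19). All 7 were found among the 69145 genes of the deposited tables, and 5 reached 1 RPKM in at least 1 library. RPKM is the number of reads scaled by the length of the gene model and by the alignments of the library, so levels of different genes can be set side by side. The libraries came from Clark standard, labelled wild type, and Clark five-foliate, an isoline of the same cultivar labelled as the five-foliate mutant and named for its extra leaflets. Plants were 4 weeks old and grown under greenhouse conditions described as optimal, and tissue was taken from multiple plants. There were 4 libraries, 1 for each genotype in each tissue. No difference within a tissue or within a genotype therefore had a replicate check, and the tissue labels were not checked against markers because the files give no gene names.

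GIGANTEA is a large plant protein with a daily rhythm that links the circadian clock to flowering. In Arabidopsis it works with the blue-light receptor FKF1, an F-box protein, to remove repressors of CONSTANS, and CONSTANS then activates the florigen gene FT in leaves under inductive day lengths. CONSTANS and its relatives carry zinc-binding B-box domains and a CCT domain. In soybean, a short-day plant, natural variation at E2 alters flowering and maturity, and LHY and TOC1, clock genes active around dawn and in the evening in Arabidopsis, belong to the same daily system. Transcripts of GIGANTEA and CONSTANS-like genes depend on the time of day, and the labels give no hour of harvest.

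The libraries differed in depth and in the overall ratio between genotypes. The totals behind the RPKM values, recovered from the values themselves, were 97532923 to 152791817 alignments. The median log2 ratio of five-foliate to standard, log2((five-foliate RPKM + 1)/(standard RPKM + 1)), was 0.34 in the shoot tip and -0.06 in the bud. This median, and every share or median of all genes given below for a ratio, is over the genes at 1 RPKM or more in at least 1 library of that comparison. The standard tip lay further from its bud than the five-foliate tip did. Between tissues, 29.7% of genes differed at least 2-fold in the standard line and 17.9% in the five-foliate line. In the shoot tip 12.3% of 36537 genes at 1 RPKM or more in either library differed at least 2-fold between genotypes, against 0.916% of 38332 genes in the bud. Fold intervals below are 95% exact binomial intervals of recovered reads, level intervals are 95% exact Poisson intervals, and both cover counting error only.

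E2 and its relative on chromosome 20 were the most abundant members in 3 of the 4 libraries and varied little among them. Glyma10g36600 had 35.6 RPKM in the standard tip and 45.4 in the five-foliate tip, with 40.9 and 40.3 in the standard and five-foliate buds. Glyma20g30980 had 38.7, 47.2, 46.1 and 45.5 RPKM in the same order. For both genes the standard tip was the lowest and the five-foliate tip the highest of the 4 libraries, and the bud libraries lay between them. In the shoot tip the five-foliate level of Glyma10g36600 was 1.28-fold the standard level (interval 1.25 to 1.30), and that of Glyma20g30980 was 1.22-fold (interval 1.19 to 1.24). On the log2 scale these ratios were 0.34 and 0.28, close to the median of all genes. Against that median they were 0.00 and -0.06, so the sign for Glyma20g30980 turned, and with upper-quartile scaling both signs turned (-0.01 and -0.07). In the bud the five-foliate level was 0.984-fold for Glyma10g36600 (interval 0.964 to 1.01) and 0.986-fold for Glyma20g30980 (interval 0.963 to 1.01). Both bud intervals include 1.

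The chromosome 9 homolog, Glyma09g07240, was lower than the other GIGANTEA genes in every library and differed far more between libraries. Its level was 1.87 RPKM in the standard tip (1166 reads) and 6.29 in the five-foliate tip (3586 reads), with 11.0 (4365 reads) and 10.4 (4411 reads) in the standard and five-foliate buds. The standard tip was lowest, the five-foliate tip intermediate, and the buds were highest and close to each other. In the shoot tip the five-foliate level was 3.36-fold higher (interval 3.15 to 3.59), a log2 ratio of 1.34 that lay above 97.0% of the genes passing the filter. Against the median of all genes the log2 ratio was 1.01. In the bud it was 0.951-fold the standard level (interval 0.912 to 0.992), a log2 ratio of -0.07 that was -0.0032 against the median of all genes and 0.00075 with upper-quartile scaling. In such bulk tissue, fewer cells of a type and less RNA per cell cannot be told apart.

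**Figure D1:**
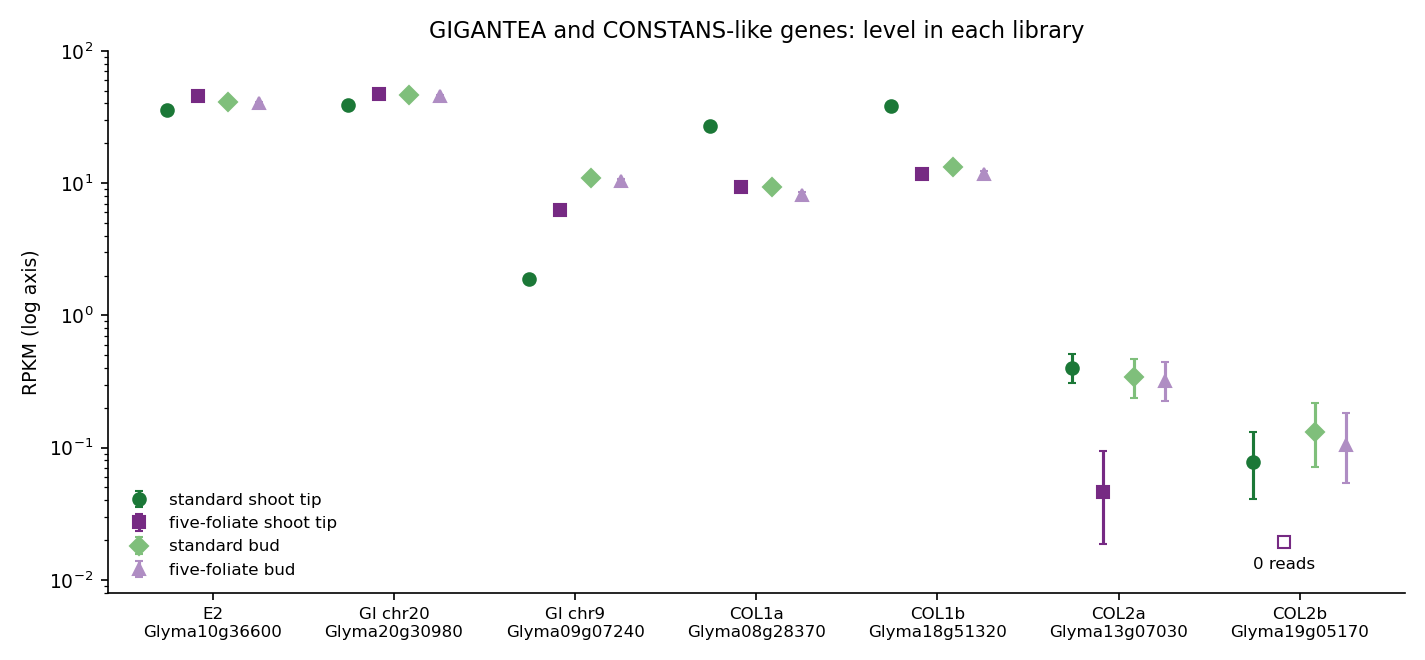
RPKM on a log axis for the 7 genes in each of the 4 libraries, with 95% Poisson intervals of the reads; the open square marks COL2b in the five-foliate tip, with 0 reads, drawn at the level of 3 reads. E2 and the chromosome 20 gene stayed between 35.6 and 47.2 RPKM, the chromosome 9 gene was lowest in the standard tip at 1.87 RPKM, and COL1a and COL1b were highest there at 27.1 and 38.5 RPKM.

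The balance among the GIGANTEA genes followed from these levels. The RPKM of Glyma10g36600 over that of Glyma20g30980 was 0.919 in the standard tip and 0.963 in the five-foliate tip, with 0.887 and 0.885 in the standard and five-foliate buds. The pair was near parity in all 4 libraries when 1 model stood for each gene. With the 2 overlapping models of Glyma10g36600 summed, which counts shared reads more than once, the log2 ratio of the pair was 0.80 to 0.92, against -0.17 to -0.05 with 1 model. Glyma10g36600 was 19.0-fold above Glyma09g07240 in the standard tip and 7.22-fold in the five-foliate tip, with 3.73-fold and 3.86-fold in the standard and five-foliate buds. The summed RPKM of the 3 genes was 76.2 in the standard tip and 98.9 in the five-foliate tip, with 98.0 and 96.2 in the standard and five-foliate buds. How reads that match several genes were counted is not given in the sources used here, so levels of closely related copies may share reads and are uncertain.

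**Figure D2:**
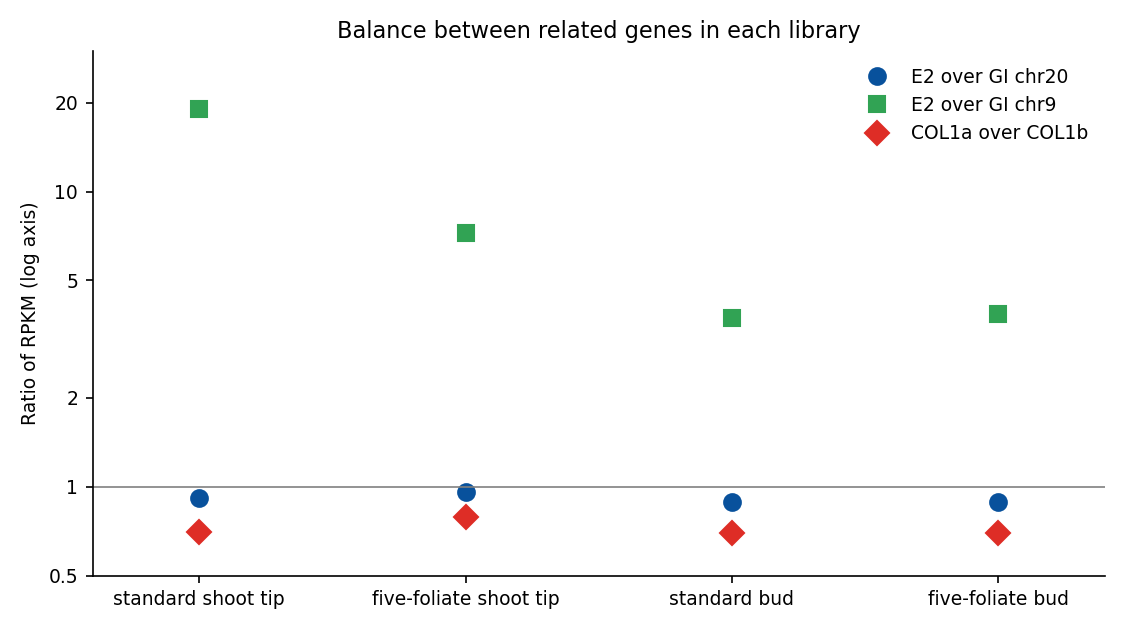
Ratio of RPKM between related genes (log axis) in each of the 4 libraries, 1 point per library and pair; the line marks equal levels. E2 over the chromosome 9 gene went from 19.0 in the standard tip to 3.73 in the standard bud, while E2 over the chromosome 20 gene stayed at 0.885 to 0.963 and COL1a over COL1b at 0.696 to 0.790.

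COL1a and COL1b, the CONSTANS-like genes with clear expression, were about equally low in 3 libraries and high in the standard tip. COL1a (Glyma08g28370) had 27.1 RPKM in the standard tip and 9.32 in the five-foliate tip, with 9.27 and 8.13 in the standard and five-foliate buds. COL1b (Glyma18g51320) had 38.5, 11.8, 13.3 and 11.7 RPKM in the same order. For both genes the standard tip was the highest library, with a single value per library and so no spread to compare. The five-foliate tip was 2.91-fold below the standard tip for COL1a (interval 2.76 to 3.07) and 3.27-fold below it for COL1b (interval 3.10 to 3.45). Their log2 ratios of -1.45 and -1.63 lay above only 2.16% and 1.61% of the genes passing the filter, and against the median of all genes they were -1.79 and -1.97. In the bud the five-foliate library was also the lower of the pair, 1.14-fold for COL1a (interval 1.05 to 1.24) and 1.14-fold for COL1b (interval 1.06 to 1.23). These bud log2 ratios of -0.17 and -0.18 were -0.11 and -0.12 against the median of all genes, and lay above 21.1% and 19.4% of genes. COL1a stood at 0.705 of COL1b in the standard tip and 0.790 in the five-foliate tip, with 0.696 and 0.698 in the standard and five-foliate buds, so the pair kept nearly the same balance at high and low levels.

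COL2a and COL2b were barely detected and did not pass the filter of 1 RPKM. COL2a (Glyma13g07030) had 0.398 RPKM in the standard tip (66 reads) and 0.0461 in the five-foliate tip (7 reads), with 0.340 (36 reads) and 0.320 (36 reads) in the standard and five-foliate buds. The five-foliate tip was the low library, 8.62-fold below the standard tip (interval 3.96 to 22.3). COL2b (Glyma19g05170) had 13 reads in the standard tip and none in the five-foliate tip, with 14 and 12 in the standard and five-foliate buds, at most 0.130 RPKM. A count of 0 in the five-foliate tip was set to a floor of 3 reads, or 0.0195 RPKM. Against that floor the level was 3.96-fold lower than in the standard tip, with an exact binomial lower limit of 2.79-fold. Like COL1a and COL1b, these 2 genes were lower in the five-foliate than in the standard tip, but their buds resembled the standard rather than the five-foliate tip.

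Set against all genes, the shoot tip difference concerned 3 of the 5 members that passed the filter. Glyma09g07240 was higher by 2-fold or more in the five-foliate line, as were 7.61% of all genes, and COL1a and COL1b were lower by 2-fold or more, as were 4.7% of all genes. With a pseudocount of 5 the call of Glyma09g07240 ended (log2 ratio 0.72) and 2 members passed. With ratios centred on their median the same 3 genes passed, against 3.03% of genes higher and 8.2% lower. The median log2 ratio of the 5 members was 0.28 in the shoot tip, beside 0.34 for all genes, and -0.07 in the bud, beside -0.06. In the bud 0 of the 5 members differed 2-fold, beside 0.916% of all genes, and their log2 ratios ran from -0.18 to -0.02.

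**Figure D3:**
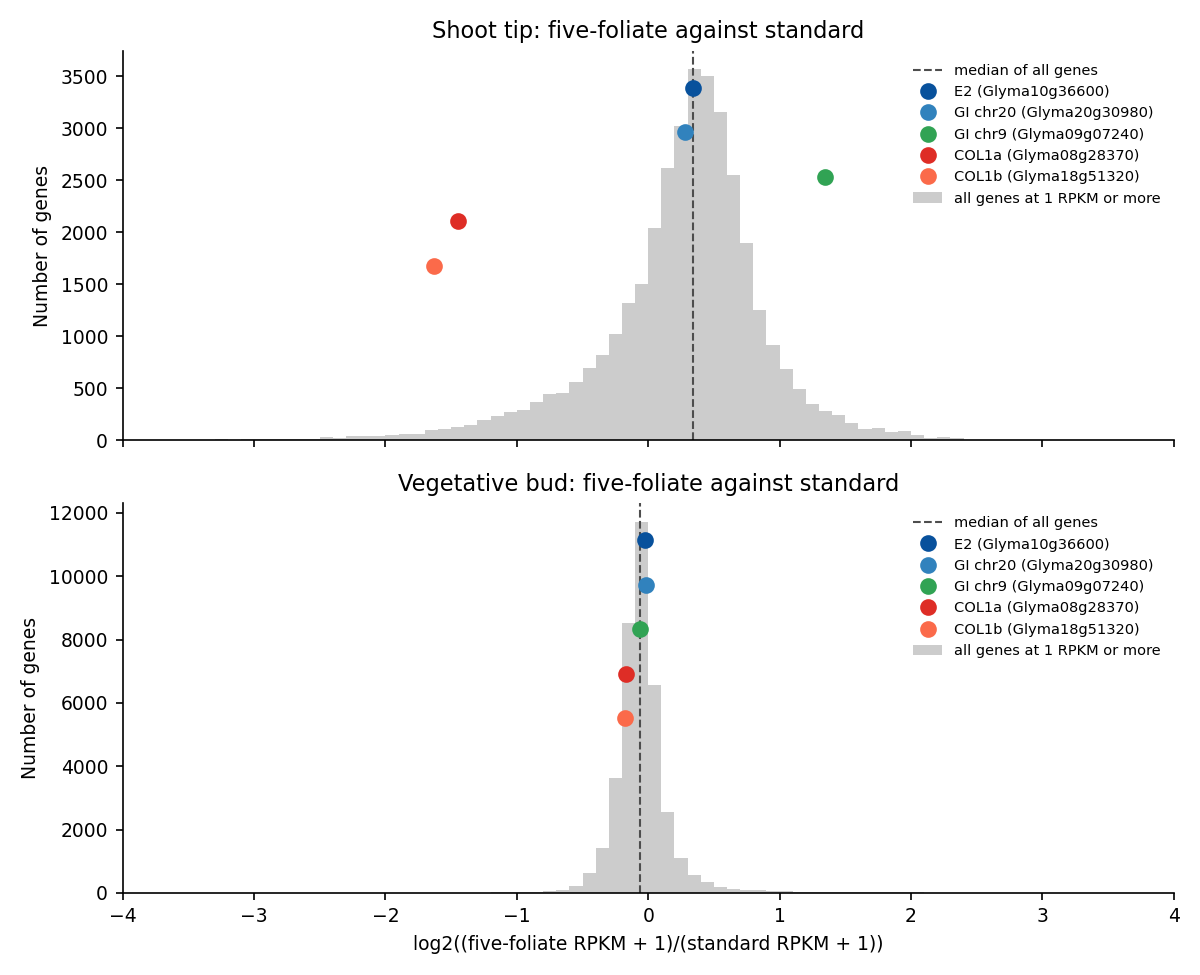
Number of genes (bars) by log2((five-foliate RPKM + 1)/(standard RPKM + 1)) in bins of 0.1, for the shoot tip (top) and the bud (bottom), with the 5 members that passed the filter as points whose height has no meaning and the median of all genes as a dashed line. In the shoot tip E2 and the chromosome 20 gene lie by the median of 0.34, the chromosome 9 gene at 1.34, COL1a at -1.45 and COL1b at -1.63; in the bud all 5 lie between -0.18 and -0.02.

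Genotype over both tissues was tested with limma on log2(RPKM + 1), with tissue as a term and Benjamini-Hochberg adjustment over 34421 genes. None of the 5 members tested passed the threshold of 0.05, and the share of all genes called was 0.41%. The unadjusted p was under 0.05 for 2 members. These were COL1a with a fitted log2 ratio of -0.81 (SE 0.376, limma adjusted p = 1.00) and COL1b with -0.90 (SE 0.376, limma adjusted p = 0.861). COL1a and COL1b were each lower in the five-foliate line in 2 of 2 tissues. A log2 ratio below 0 was found for 25.2% of all genes in the shoot tip and 68.9% in the bud. Glyma09g07240 had a fitted log2 ratio of 0.64 (limma adjusted p = 1.00), higher in the five-foliate line in 1 of 2 tissues. The fit had 1 residual degree of freedom and gave every gene the same standard error. The smallest absolute log2 ratio it called was 1.40.

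Tissue was compared within each genotype, across tables in which each library was scaled by its own total. These ratios reuse the libraries of the genotype comparison, the standard tip included. In the standard line Glyma09g07240 was 5.86-fold higher in the bud (interval 5.50 to 6.26), COL1a was 2.93-fold lower (interval 2.76 to 3.12) and COL1b was 2.89-fold lower (interval 2.73 to 3.07). These were the 3 of 5 members at least 2-fold different there, beside 29.7% of all genes. In the five-foliate line, where the standard tip plays no part, Glyma09g07240 was 1.66-fold higher in the bud (interval 1.59 to 1.73). COL1a was 1.15-fold lower (interval 1.06 to 1.23), and the COL1b ratio of 0.988 had an interval that includes 1 (0.919 to 1.06). In that line 0 of 5 members differed 2-fold, beside 17.9% of all genes. COL2a was 6.94-fold higher in the five-foliate bud than in the five-foliate tip (interval 3.04 to 18.5), from 36 and 7 reads. For E2 the bud was 1.15-fold the shoot tip in the standard line (interval 1.13 to 1.17) and 0.886-fold in the five-foliate line (interval 0.869 to 0.903), while against the medians of all genes the log2 ratios were -0.27 and -0.24, both lower in the bud.

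The limma tissue term called 1 of the 5 members, beside 18.1% of all genes. The tissues were deposited separately, so in this term tissue cannot be told apart from whatever else differed between the deposits. Glyma09g07240 rose in the bud with a fitted log2 ratio of 1.35 (SE 0.376, limma adjusted p = 0.00325), higher in 2 of 2 genotypes. A log2 ratio of bud to tip below 0 was found for only 26.0% of all genes in the standard line and 45.3% in the five-foliate line. The call of Glyma09g07240 ended with libraries centred on their medians (limma adjusted p = 0.115), with no filter (0.444) and with genotype left out of the fit (0.105). COL1a and COL1b had fitted log2 ratios of -0.82 and -0.74 (limma adjusted p = 0.124 and 0.176).

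Other genes of the photoperiod system were examined through 6 lists of identifiers that the soybean flowering literature assigns to FKF1, LHY, TOC1, phytochrome A, FT and E1. The files do not pair these identifiers with names. Both FKF1 identifiers, whose Arabidopsis counterpart binds GIGANTEA, shared the low standard tip of Glyma09g07240. Their five-foliate tip also lay between the standard tip and the buds, but with a smaller step to the five-foliate bud. In the five-foliate line the bud was 1.05-fold the tip for both, against 1.66-fold for Glyma09g07240. Glyma05g34530 had 6.40 RPKM in the standard tip and 15.9 in the five-foliate tip, with 19.2 and 16.8 in the standard and five-foliate buds. Glyma08g05130 had 6.33, 17.7, 21.2 and 18.6 RPKM. The standard tip was the low library for both, and 2 of 2 exceeded 2-fold with the higher level in the five-foliate tip, beside 7.61% of all genes, with 0 of 2 past 2-fold in the bud, beside 0.916%.

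In the tip all 4 LHY identifiers were lower by 2-fold or more in the five-foliate line, beside 4.7% of all genes. In the bud 0 of the 4 differed 2-fold, beside 0.916% of all genes. Their summed RPKM was 147.1 in the standard tip and 52.2 in the five-foliate tip, with 60.1 and 56.2 in the standard and five-foliate buds, high in the same library as COL1a and COL1b. The highest, Glyma07g05410, had 63.3 RPKM in the standard tip and 25.5 in the five-foliate tip, with 24.6 and 23.8 in the standard and five-foliate buds. Their shoot tip folds ran from 2.48-fold lower for that gene to 9.38-fold lower for Glyma03g42260. The LHY identifiers were not alike in the five-foliate line. There the bud was 3.03-fold the tip for Glyma03g42260 and 2.09-fold for Glyma19g45030, unlike COL1a and COL1b. It was 1.03-fold the tip for Glyma16g01980 and 0.932-fold for Glyma07g05410. None of the 4 TOC1 identifiers differed 2-fold between genotypes, beside 12.3% of all genes in the shoot tip and 0.916% in the bud, with log2 ratios of 0.03 to 0.58 in the shoot tip and -0.20 to 0.04 in the bud. The highest, Glyma17g11040, had 14.3 RPKM in the standard tip and 19.1 in the five-foliate tip, with 10.8 and 9.29 in the standard and five-foliate buds. In the limma genotype term 0 of the 10 FKF1, LHY and TOC1 genes passed the threshold, beside 0.41% of all genes, and the lowest adjusted p was 0.0741 for Glyma03g42260. LHY and FKF1 levels thus differed between the tip libraries along with those of the CONSTANS-like genes and Glyma09g07240. The part of the hour of harvest in these differences was not tested.

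**Figure D4:**
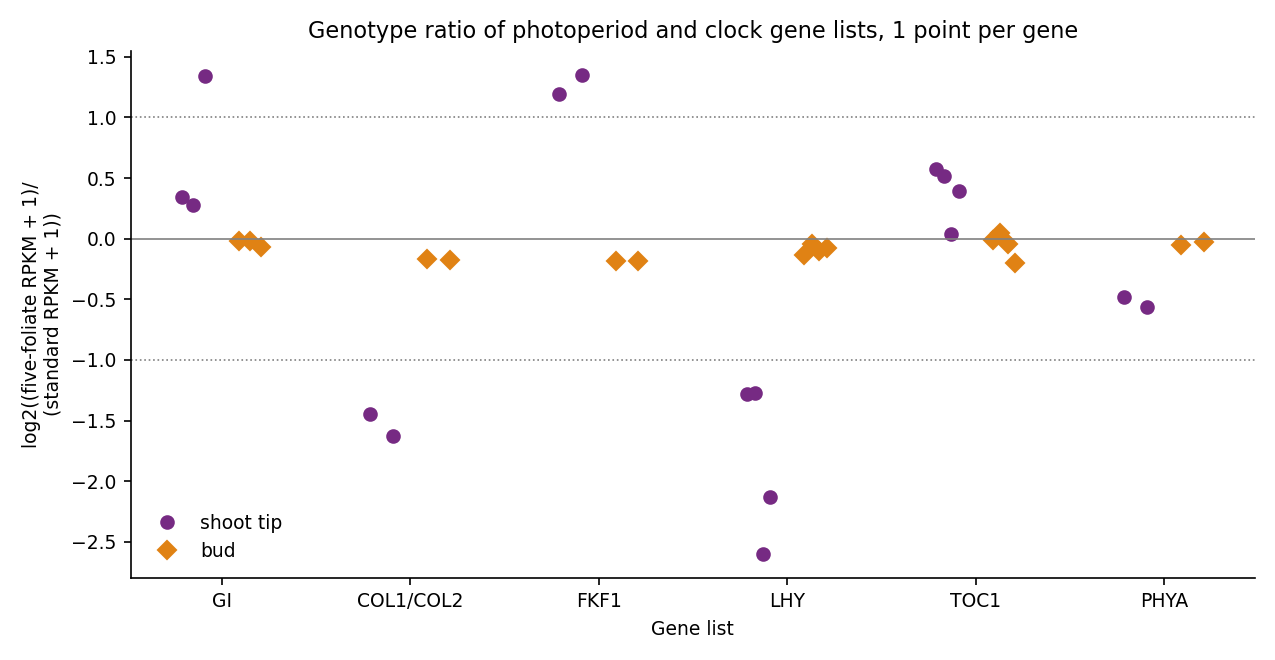
Log2((five-foliate RPKM + 1)/(standard RPKM + 1)) of each gene at 1 RPKM or more in the tissue, for the GIGANTEA, COL1, FKF1, LHY, TOC1 and phytochrome A genes (FT and E1 are not plotted), with circles for the shoot tip and diamonds for the bud; the dotted lines mark 2-fold. In the shoot tip the 4 LHY genes lie at -2.60 to -1.28, the COL1 genes at -1.63 and -1.45 and the FKF1 genes at 1.20 and 1.35, while the plotted bud points lie between -0.20 and 0.04.

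Phytochrome A genes encode far-red light receptors, and 2 of 4 identifiers passed the filter in the shoot tip. Their log2 genotype ratios there were -0.56 and -0.48, and in the bud -0.05 and -0.03. The highest, Glyma20g22160, had 12.5 RPKM in the standard tip and 8.66 in the five-foliate tip, with 7.86 and 7.56 in the standard and five-foliate buds. FT encodes the mobile flowering signal. Of 10 FT identifiers only Glyma16g26660 reached 1 RPKM, with 0.406 RPKM in the standard tip and 0.347 in the five-foliate tip, with 1.77 and 1.16 in the standard and five-foliate buds. It was higher in both buds than in both shoot tips. The E1 family, of a legume-specific flowering repressor, was listed with 4 identifiers. Glyma06g23026 was absent from the deposited data, so its level is unknown. The 3 identifiers found had no read in any library.

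The genes nearest in pattern were sought by the Euclidean distance between 4 library values of log2(RPKM + 1), each gene centred on its mean, among 40448 genes. For Glyma20g30980, the GIGANTEA gene with the highest mean, the nearest were Glyma09g32830 at a distance of 0.0121 and Glyma19g36050 at 0.0133. Glyma10g36600 ranked 733 at 0.0972, so many genes shared this flat pattern. For COL1b, the CONSTANS-like gene with the highest mean, the nearest were Glyma15g05580 at 0.0796 and Glyma13g01250 at 0.0917. Glyma15g05580 was a low gene, with 2.73 RPKM in the standard tip and 0.122 in the five-foliate tip. At such levels the pseudocount of 1 understates changes, so its plain fold was larger than that of COL1b. COL1a ranked 19 by this distance, at 0.147. With 4 libraries such likeness is a description only. Glyma09g07240 had no other member close to it, the nearest being Glyma20g30980 at 1.47 and rank 23326.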

How the data were processed

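RNA-seq was made from total RNA of 4 libraries. The authors deposited RPKM values in 2 tables, 1 for each tissue, with Bowtie named in the submitters' processing notes. The sources used here name no version, genome build or annotation release, nor how reads matching several models were counted. Both tables hold the same 78773 gene models of 69145 genes, and 708957 rows of the bud table without an identifier were dropped. The bud columns are not headed RPKM, but the table is named so and its values came out whole on that scale. Each gene was represented by its model of highest mean RPKM.

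Whole reads were recovered by searching whole library totals and a whole model length from 20 to 20000 that made all values of a model whole within 0.0005 reads. This held for 99.986% of the 62593 models with all 4 values above 0, and for 0% of 3000 models with shifted values. For COL2b, with 0 reads in a library, the other 3 values set the length. Recovered reads entered intervals and floors only.

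Ratios used a pseudocount of 1 RPKM, which understates changes of low genes, and a filter of 1 RPKM in at least 1 library of the comparison. The limma fit (version 3.58.1, functions lmFit and eBayes, R 4.3.3) took genes at 1 RPKM in at least 1 library of each tissue. It was tried on simulated data in which no genotype difference depended on tissue. In the real data such differences make up the residual, so the trial does not check the p-values given here. The remaining steps ran in Python 3.11.15 with SciPy 1.17.1, pandas 2.3.3, numba 0.67.0, numpy 2.4.6 and matplotlib 3.10.9. Only the genotype and tissue terms over all 4 libraries were tested. In the sample titles, number 1 marks shoot tip and 2 marks bud, so the replicate number is the tissue and entered the fit as a term.

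Members and lists were chosen with earlier results of these data known. Named were all 7 members, the listed identifiers as counts with values of the highest by mean RPKM, and the 2 nearest genes to the most abundant member of each family. Other values of FKF1 and LHY identifiers were picked after they were seen. Names of members come from the choice of members and those of listed genes from the literature, as the files hold none. A RefSeq table of 59048 genes (Glycine_max_v4.0) was searched for names or synonyms of the same gene family on the same chromosome. It had such a gene for 26 of the 35 identifiers, 4 of 7 members included. Positions were not compared, and the same RefSeq gene can match several identifiers. A match therefore does not show that an identifier is that gene. On chromosome 8 the RefSeq table has COL2A, with COL1a as a synonym, and on chromosome 18, the chromosome of COL1b here, it has COL2B. Alternatives were other pseudocounts (0.1 and 5), filters, scalings, a 3-fold threshold, models summed and terms left out.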

Additional observations from a re-analysis of the deposited data

Results flagged for a closer look

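For 3 GIGANTEA genes the same contrast pointed in opposite directions in the other tissue or line, with counting intervals on opposite sides of 1, and the difference between these ratios was not tested because each rests on 1 library per group. Glyma09g07240 was 3.36-fold higher in the five-foliate than in the standard shoot tip and 0.951-fold in the bud. Its bud log2 ratio was -0.0032 against the median of all genes and 0.00075 with upper-quartile scaling, so the bud direction depended on the scaling. Glyma10g36600 in the bud was 1.15-fold its shoot tip level in the standard line and 0.886-fold in the five-foliate line. Glyma20g30980 in the bud was 1.19-fold its shoot tip level in the standard line and 0.965-fold in the five-foliate line. After centring on the median of all genes, Glyma10g36600 (-0.27 and -0.24 on the log2 scale) and Glyma20g30980 (-0.22 and -0.12) were lower in the bud in both lines.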

How the results depend on the processing

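The count of members at least 2-fold different was 3 in the shoot tip and 3 between tissues of the standard line, and each count was 1 with a 3-fold threshold on the same log2(RPKM + 1) scale. The shoot tip count was 2 with a pseudocount of 5. The limma genotype term called 141 of all genes, 245 with a pseudocount of 5 and 47 with a filter of 5 RPKM. It called 0 with no filter (1903 at an unadjusted p under 0.05), 0 with centred libraries (422) and 0 with no replicate block, that is with tissue left out (109). It called 0 members in every setting run. The limma tissue term called 6227 genes and 1 member, 2568 genes with a filter of 5 RPKM, and 0 genes and 0 members with no filter (12218 genes at an unadjusted p under 0.05) and with centred libraries (10459). With genotype left out it called 4486 genes and 0 members. With centred libraries the fitted log2 ratio was -0.016 for Glyma20g30980 between genotypes, and -0.19 for Glyma10g36600 and -0.11 for Glyma20g30980 between tissues, each opposite in sign. The cause of these changes was not tested. The other 47 counts stayed within 1.5 times. With a pseudocount of 0.1 the log2 ratio of COL2a in the shoot tip was -1.77, against -0.42 with 1. Groups of 1 library allowed no omission of replicates. Depth limits COL2a and COL2b, with at most 66 reads.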

Other observations

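The ratio between annotated models was examined for the GIGANTEA members. Glyma10g36600 had 2 models, and the RPKM of the second over the first was 0.989 to 0.990 in all 4 libraries. Glyma09g07240 also had 2 models, with ratios of 0.871 in the standard tip and 0.818 in the five-foliate tip, with 0.836 and 0.843 in the standard and five-foliate buds. The low level of Glyma09g07240 in the standard tip was thus seen in both models, whose reads overlap. The TOC1 identifier Glyma17g11040 differed more between its models: the first had 9.31 RPKM in the standard tip and 9.57 in the five-foliate tip, and the second had 14.3 and 19.1.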
